A study of Mus musculus with 8 samples.

Results

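*Nanos3*, *Upp1*, *Neurog3* and *Sox3* are genes whose transcripts are associated with the progenitor fraction of undifferentiated spermatogonia, the cells that have left or are leaving the stem cell pool and await the signal to differentiate. The genes were chosen by name, with earlier results of these data known, and all 4 were found among the 5736 genes of the table analysed. Their levels were followed from undifferentiated Aal spermatogonia (2 libraries) to A1 spermatogonia, the first differentiating type (3 libraries), and to A3 spermatogonia, a later differentiating type (3 libraries). *Nanos3* and *Upp1* lost most of their level by A1. *Neurog3* was lower at each stage, by steps on a log2 scale that a test did not tell apart. *Sox3* had overlapping levels in Aal and A1 and its lowest level in A3.

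Each library was made by bulk RNA-seq from EGFP+ germ cells sorted from dissociated testes of CD1:Uchl1-eGFP mice, in which the promoter of *Uchl1* drives EGFP, and each preparation pooled testes of several pups of a litter. Mice of all groups were given bis-(dichloroacetyl)-diamine by mouth at 100 µg per g of body weight, which blocks the synthesis of retinoic acid (RA). The labels of all 8 libraries give this treatment as lasting from postnatal day 1 to postnatal day 11. They also state that RA (10 µg/µl, 10 µl) was injected once, on postnatal day 11. The Aal samples are labelled as undifferentiated spermatogonia, and the study describes them as cells of inhibitor-treated testes before RA. The age at harvest of each group is not given in the labels. The sort selects germ cells by a single transgene and does not separate stem cells from progenitors, and stem cells are described by the study as insensitive to RA, so they can be present in every group. In such bulk samples, fewer cells with a transcript and less transcript per cell cannot be told apart.

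RA is the signal that moves progenitor spermatogonia into differentiation, after which the cells pass through a fixed series of divisions before meiosis. NANOS3 is an RNA-binding protein that recruits machinery for silencing and degrading mRNAs. NEUROG3 is a basic helix-loop-helix (bHLH) transcription factor that binds E-boxes as a dimer with E proteins, and is a long-used marker of progenitors primed to differentiate. SOX3, a high mobility group transcription factor of the SoxB1 group encoded on the X chromosome, acts in progenitors, and its loss impairs spermatogenesis. UPP1 is uridine phosphorylase, an enzyme of pyrimidine salvage that splits uridine into uracil and a sugar phosphate. The study names its transcript among the markers of stem and progenitor cells. From its RNA-seq the study reported that *Upp1*, *Id4* and *Nanos2* fell from undifferentiated to A1 spermatogonia and that *Sohlh2* rose. Those changes are therefore not independent of the study's own result.

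In the mm9 assembly *Nanos3* lies at chr8:86697632-86700451 on the minus strand with 2 exons, *Upp1* at chr11:9018106-9036173 on the plus strand with 9 annotated transcripts, *Neurog3* at chr10:61595838-61597511 on the plus strand with 2 exons, and *Sox3* at chrX:58144545-58146605 on the minus strand as a single-exon gene. *Neurog3* overlaps 2010107G23Rik on the other strand, and no source says whether counting used the strand, so its reads could be shared with that gene. RefSeq promoters (GRCm38.p6 build) were matched for 3 of the 4 genes, and the 250 bases before the start site are shown because these genes moved together in A3 against Aal. Capitals mark E-boxes (CANNTG, the site class of bHLH factors) and SOX core motifs (ACAAAG or ACAATG, either strand). The sequences read 5′ to 3′ on the strand of the gene.
*Nanos3*, chr8:84176553-84176802, minus strand: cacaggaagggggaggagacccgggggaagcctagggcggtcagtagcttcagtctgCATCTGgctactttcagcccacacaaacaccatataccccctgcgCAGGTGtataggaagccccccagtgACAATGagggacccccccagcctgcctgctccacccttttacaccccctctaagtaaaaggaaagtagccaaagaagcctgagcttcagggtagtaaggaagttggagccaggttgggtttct
*Upp1*, first of 3 start sites, chr11:9117758-9118007, plus strand: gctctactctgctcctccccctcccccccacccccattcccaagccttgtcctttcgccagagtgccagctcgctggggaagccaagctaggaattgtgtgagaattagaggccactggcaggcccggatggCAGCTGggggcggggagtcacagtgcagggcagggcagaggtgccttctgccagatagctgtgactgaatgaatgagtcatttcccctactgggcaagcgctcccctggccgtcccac
*Neurog3*, chr10:62132840-62133089, plus strand: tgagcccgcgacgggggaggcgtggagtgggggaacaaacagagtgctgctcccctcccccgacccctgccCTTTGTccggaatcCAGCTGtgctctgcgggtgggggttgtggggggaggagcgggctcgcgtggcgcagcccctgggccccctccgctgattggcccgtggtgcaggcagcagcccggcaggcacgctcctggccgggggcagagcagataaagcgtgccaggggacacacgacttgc

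The *Nanos3* window held 2 E-boxes, CATCTG starting at -193 and CAGGTG at -148 bases from the start site, and the SOX core ACAATG at -123. The *Neurog3* window held the E-box CAGCTG at -165 and, in reverse orientation, the SOX core CTTTGT at -179. The *Upp1* window shown held CAGCTG at -118 and no SOX core. The window of its second start site overlaps the one shown and held the same CAGCTG, there at -213. The window of the third start site held 2 E-boxes, and neither of these windows held a SOX core. These motifs are frequent: of 32851 mouse promoter windows of the same length, 66.2% held an E-box and 25.2% a SOX core. Neither the retinoic acid receptor half-site AGGTCA nor a pair of such half-sites 1, 2 or 5 bases apart, nor TATAAA, was found in the windows of these 3 genes. Those motifs were found in 14.0%, 0.0517% and 12.4% of all windows. None of the motifs overlapped another in the windows shown.

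Library totals recovered from the values ran from 18276164 to 27316451 reads. FPKM (fragments per length of gene and library size) is a level per gene length, so levels of different genes can be set side by side where the length used is right. The length behind the values was 1532 bases for *Upp1*, against 1961 bases of merged exons in the annotation used here, and it matched or lay within 4 bases of the annotated length for the other genes. Comparisons of *Upp1* with other genes are therefore also given at 1961 bases, an alternative chosen after the data were seen, while its changes between stages do not depend on the length. *Nanos3* rested on 163 to 2047 reads per library, *Upp1* on 255 to 3202, *Neurog3* on 199 to 1020 and *Sox3* on 1061 to 2649. Labels were set beside other genes, from lists chosen with earlier results of these data known. Of 10 stem cell state genes in the table, 9 were called lower in A1 than in Aal (4.97% of all genes were), and of 12 tested genes of differentiating spermatogonia 7 were called higher (4.19% of all genes were). *Uchl1* was at 4493 and 5227 FPKM in Aal, 4048 to 7270 in A1 and 5280 to 5912 in A3. One library stood apart: the summed level of Sertoli cell markers (12 of 21 listed were in the table) was 447 FPKM in A1 replicate 3. The sum was 63.0 and 65.4 in the other A1 libraries, 41.8 and 58.2 in Aal, and 229 to 428 in A3. Markers of peritubular myoid cells and macrophages were also highest in A1 replicate 3, with sums of 10.5 and 14.2 FPKM against at most 4.53 and 6.34 in the other libraries. Of 11 Sertoli markers tested in A3 against Aal, 8 were called higher and 1 lower. Leydig markers summed to 4.75 and 7.19 FPKM in Aal and 19.8 to 22.6 in A3. In A1 replicates 1, 2 and 3 the sum was 9.99, 10.3 and 19.2. Most of this was *Fabp3*, with means of 4.11, 9.46 and 19.9 FPKM in Aal, A1 and A3. In the same order *Cyp11a1* had 0.718, 0.731 and 0.316, *Cyp17a1* 0.961, 2.25 and 1.15, and *Hsd3b6* 0.183, 0.723 and 0.178. The A1 libraries differed widely, from 0.222 to 1.66 for *Cyp11a1*, 0.616 to 5.20 for *Cyp17a1* and 0.104 to 1.94 for *Hsd3b6*. These genes are named after their values were seen. Endothelial markers had sums of 7.90 to 9.07 FPKM in Aal, 5.21 to 6.62 in A1 and at most 3.55 in A3. Spermatocyte markers had 280 to 284, 228 to 295 and 220 to 326 in the same order, of which *Tex101* was the largest part. Of 6 spermatocyte markers tested in A1 against Aal, 2 were called lower, *Spo11* (-1.18) and *Ldhc* (-1.19), and 0 higher. These 3 genes are named after their values were seen. Spermatid markers stayed between 1.82 and 2.72 FPKM. The part of somatic RNA in the results was not tested. Without A1 replicate 3, an alternative added after the data were seen, no call in A1 against Aal or A3 against A1 was lost in the 7 lists of germ cell state and family genes described here, and 2 genes gained one, *Tcf4* (lower in A1, and named after its values were seen) and *Id2* (higher in A3 than in A1). Of 10 Sertoli markers tested in A3 against A1, 0 were called with that library, where 1 had an unadjusted p below 0.05 and voom called 0, and 6 were called higher without it.

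*Nanos3* was the highest of the 4 transcripts in Aal and had nearly the whole of its change by A1. Its level was 91.4 and 111.7 FPKM in Aal, 21.7, 12.6 and 12.2 in A1 and 15.3, 14.8 and 14.6 in A3. The A1 and A3 libraries lay far below both Aal libraries and overlapped each other. Mean levels were 101.5 ± 14.4 FPKM (SD, n = 2), 15.5 ± 5.38 (SD, n = 3) and 14.9 ± 0.384 (SD, n = 3), so that A1 stood at 15.3% and A3 at 14.7% of Aal. On the log2(FPKM + 1) scale on which all changes are given, *Nanos3* fell by 2.67 from Aal to A1 (SE 0.23; limma, adjusted p = 0.000286), the change at rank 2 from the lowest among 4632 genes tested. From A1 to A3 the change was -0.01 with a 95% confidence interval of -0.46 to 0.44 (limma, adjusted p = 0.980). The spread was wide in A1 and narrow in A3.

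*Upp1* was lower in A1 and lower again in A3. It measured 70.4 and 83.2 FPKM in Aal, 22.4, 15.7 and 16.0 in A1, and 8.79, 10.3 and 10.4 in A3. The groups did not overlap in either step. The mean was 76.8 ± 9.06 FPKM (SD, n = 2), then 18.0 ± 3.80 (SD, n = 3) and then 9.84 ± 0.912 (SD, n = 3), or 23.5% and then 12.8% of the Aal mean. The transcript fell by 2.04 (SE 0.16; limma, adjusted p = 0.000227) from Aal to A1. From A1 to A3 the difference was -0.80 (SE 0.14, interval -1.13 to -0.47; limma, adjusted p = 0.00854), which passed the p threshold but not the fold threshold. Over the entire interval *Upp1* showed the change at rank 4 from the lowest among 4687 genes, -2.84 (SE 0.11).

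In A1, replicate 1 had the highest level of both *Nanos3* and *Upp1*. The same library was the highest of its group for 9 of the 10 stem cell state genes in the table, and the lowest for 9 of 13 genes of differentiating spermatogonia. For *Neurog3* and *Sox3* the highest A1 library was replicate 2. Without A1 replicate 1, *Nanos3* was 0.24 higher in A3 than in A1 (limma, adjusted p = 0.0841), where with it the difference was close to 0. Without it the fall of *Nanos3* from Aal to A1 was -2.93 and that of *Upp1* -2.20.

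**Figure D1:**
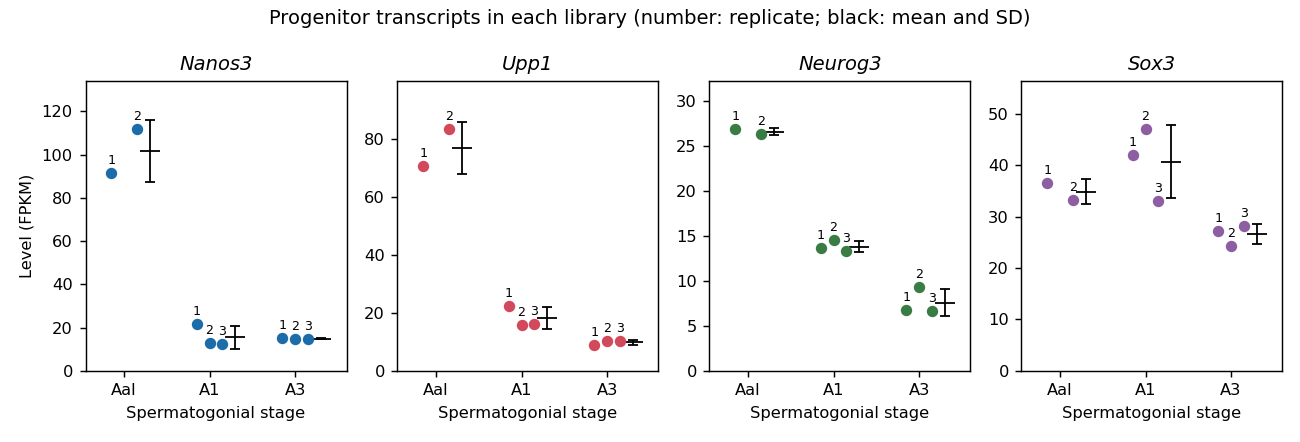
Level in FPKM (y axis, starting at 0, with its own scale for each gene) of *Nanos3*, *Upp1*, *Neurog3* and *Sox3* in the 2 Aal, 3 A1 and 3 A3 libraries (x axis). Points are libraries labelled with the replicate number, and black marks give the group mean with its SD. *Nanos3* is as low in A1 as in A3, *Upp1* and *Neurog3* are lower at each stage, and *Sox3* has overlapping values in Aal and A1 and lower values, 24.4 to 28.2 FPKM, in A3.

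*Neurog3* was lower at each stage than at the one before. Its level was 26.9 and 26.4 FPKM in Aal, 13.7, 14.5 and 13.3 in A1, and 6.82, 9.33 and 6.66 in A3. No library of a later stage reached any library of an earlier stage. The means, 26.6 ± 0.359 (SD, n = 2), 13.8 ± 0.621 (SD, n = 3) and 7.60 ± 1.495 FPKM (SD, n = 3), put A1 at 51.9% of Aal and A3 at 55.0% of A1. The differences were -0.90 (SE 0.07; limma, adjusted p = 0.000258) and -0.80 (SE 0.13; limma, adjusted p = 0.00533). Both passed the p threshold and neither the fold threshold on its own. Together they came to -1.70 (SE 0.14; limma, adjusted p = 3.9e-05), and *Neurog3* was called lower in A3 than in Aal.

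*Sox3* was the exception among the 4 genes. Its level was 36.6 and 33.2 FPKM in Aal, 41.9, 47.0 and 33.0 in A1, and 27.1, 24.4 and 28.2 in A3. The A1 and Aal libraries overlapped, while every A3 library was below all others. Mean levels were 34.9 ± 2.39 (SD, n = 2), 40.6 ± 7.06 (SD, n = 3) and 26.5 ± 1.96 FPKM (SD, n = 3). The difference of A1 from Aal was 0.20 (SE 0.14, interval -0.13 to 0.53; limma, adjusted p = 0.290). A3 differed from A1 by -0.58 (SE 0.12; limma, adjusted p = 0.0166) and from Aal by -0.38 (SE 0.09; limma, adjusted p = 0.00613), and *Sox3* was called in neither comparison.

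The lowest *Sox3* value in A1 belonged to replicate 3, the library with the high Sertoli markers. Without that library *Sox3* was 0.34 higher in A1 than in Aal (limma, adjusted p = 0.0105) and the step from A1 to A3 was -0.72 (limma, adjusted p = 0.0025). *Nanos3*, *Upp1* and *Neurog3* differed between A1 and Aal by -2.53, -1.97 and -0.87 without it, and the calls of *Nanos3* and *Upp1* held. The A3 libraries, in which the summed Sertoli level was 229 to 428 FPKM, have no counterpart with a low sum, so stage and somatic RNA cannot be told apart in A3.

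**Figure D2:**
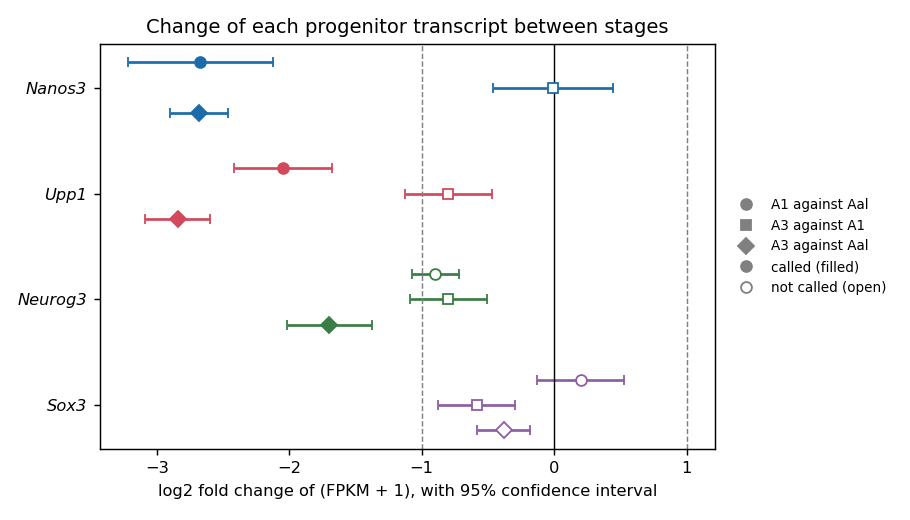
Log2 fold change of FPKM + 1 (x axis) for each of the 4 genes (y axis), with 95% confidence intervals from limma: circles for A1 against Aal, squares for A3 against A1, diamonds for A3 against Aal. Filled symbols were called, and dashed lines mark the fold threshold. *Nanos3* and *Upp1* have the lowest values, *Neurog3* is called in A3 against Aal, and the *Sox3* interval for A1 against Aal spans 0.

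A gene was called where its adjusted p was 0.01 or less and its change exceeded 1 on the log2 scale in either direction. In A1 against Aal 2 of the 4 genes, *Nanos3* and *Upp1*, were called lower. Among all genes tested in that comparison 4.97% were called lower. With no threshold on the fold, 3 of the 4 genes had an adjusted p at or under 0.01 and were lower, against 14.0% of all genes. The same 3 genes did not overlap between the groups in the lower direction, as 29.4% of all genes did.

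From A1 to A3 none of the 4 genes was called by limma, nor by limma voom on recovered reads, against 1.02% of all genes called lower and 0.479% called higher. At unadjusted p below 0.05, 1562 of 4590 genes passed, among them *Upp1*, *Neurog3* and *Sox3*. Those 3 did not overlap between groups in the lower direction, as 20.1% of all genes did, and *Upp1* and *Neurog3* passed the adjusted p threshold without the fold threshold, as 5.45% did. Leaving out a library moved the adjusted p of *Upp1* in this step to between 0.00822 and 0.0347 and that of *Neurog3* to between 0.00737 and 0.0291.

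In A3 against Aal 3 of the 4 genes were called lower, and *Sox3* was the other. Of all genes 9.69% were called lower and 7.87% higher. All 4 genes had groups that did not overlap, and all passed the p threshold in the lower direction, against 34.2% and 21.8% of all genes. *Sox3* did not keep this under every setting: its adjusted p ran from 0.00275 to 0.0658 over 16 other settings and was above 0.01 in 5 of them. The pair of comparisons with Aal share its 2 libraries, so these counts are not separate observations.

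Whether the steps differed in size was tested over all 8 libraries as the change from A1 to A3 minus the change from Aal to A1. For *Nanos3* this difference was 2.66 (SE 0.33; limma, adjusted p = 0.00122), the fall lying in the first step. *Upp1* gave 1.25 (SE 0.24; limma, adjusted p = 0.00682), also with the larger fall first, but this call was lost in 6 of the 8 fits that left out a library. The difference for *Neurog3* was 0.10 (SE 0.21, interval -0.37 to 0.56; limma, adjusted p = 0.790), so that its steps were not told apart. That of *Sox3*, -0.79 (SE 0.21; limma, adjusted p = 0.0269), had the opposite sign and missed the threshold, but became -1.06 (limma, adjusted p = 0.00338) without A1 replicate 3. Among all genes 3.24% were called in the direction of *Nanos3* and *Upp1*.

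The make-up of the 4 transcripts changed with stage. Their summed level was 225 and 254 FPKM in Aal, 99.8, 89.8 and 74.6 in A1 and 58.1, 58.8 and 59.8 in A3. In both Aal libraries the order of levels was *Nanos3*, *Upp1*, *Sox3*, *Neurog3*, at either length of *Upp1*. In all A1 and A3 libraries *Sox3* was first, and in all A3 libraries *Nanos3* was second. *Sox3* held 13.0% and 16.2% of the sum in Aal, 42.0% to 52.3% in A1 and 41.4% to 47.1% in A3. At the longer *Upp1* length these shares were 14.0% and 17.4%, 44.2% to 54.4%, and 43.1% to 48.9%. The places of the other genes in A1, and of *Upp1* and *Neurog3* in A3, changed between libraries or with the length of *Upp1*.

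Ratios within a library do not depend on its scaling. The level of *Nanos3* over that of *Upp1* was 1.297 and 1.342 in Aal, 0.969, 0.805 and 0.764 in A1, and 1.74, 1.43 and 1.40 in A3. The ratio was lowest in A1 and highest in A3, with no overlap between the groups, an order that a constant length cannot change. At the longer *Upp1* length it was 1.66 and 1.72 in Aal, 1.24, 1.03 and 0.977 in A1, and 2.23, 1.83 and 1.79 in A3, so that a ratio under 1 in A1 rests on the length. *Neurog3* over *Sox3* was 0.736 and 0.795 in Aal, and 0.309 to 0.404 in A1 and 0.237 to 0.383 in A3, which overlapped each other.

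**Figure D3:**
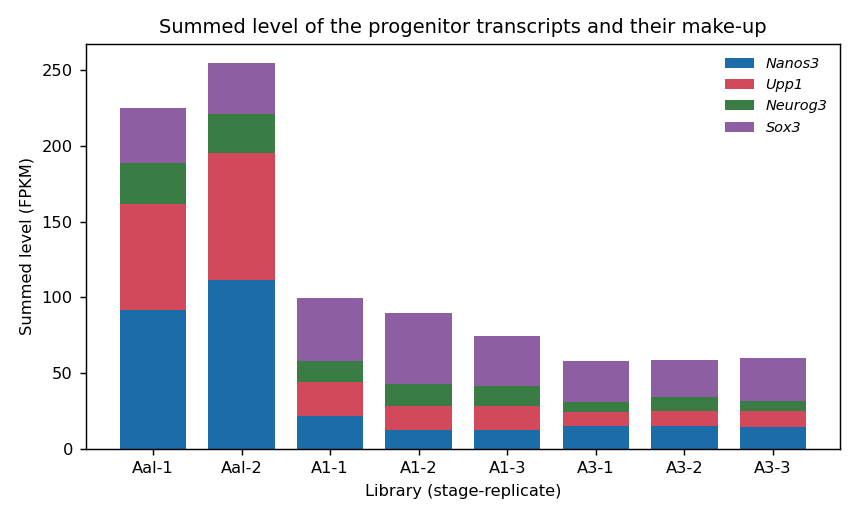
Stacked bars, starting at 0, of the FPKM (y axis) of *Nanos3*, *Upp1*, *Neurog3* and *Sox3* in each library (x axis, stage and replicate). The summed level falls from 225 and 254 FPKM in Aal to about 59 in each A3 library, and *Sox3* makes up the largest part of every A1 and A3 bar.

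The paralogs in the table gave another view of the families. *Nanos2*, an RNA-binding repressor that maintains the stem cell state, was far lower than *Nanos3* at 7.05 and 9.49 FPKM in Aal, 1.44 to 2.44 in A1 and 1.24 to 2.15 in A3. It was called lower in both comparisons with Aal, by -1.70 (limma, adjusted p = 0.000580) and -1.83, and its change from A1 to A3 was -0.13, so that, as with *Nanos3*, nearly all of it lay in the first step. *Sox2*, the other SoxB1 gene in the table, was at 0.272 to 0.890 FPKM in all libraries and was too low to be tested. *Nanos1*, *Neurog1*, *Neurog2*, *Sox1* and *Upp2* were not analysed here.

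Other undifferentiated genes were divided as well. Among 10 tested genes of the stem cell state, 9 were called lower in A1 than in Aal, with a median change of -1.80 against 0.03 over all genes, 0 were called between A1 and A3, with a median of 0.07, by limma or by voom, and 0 passed an unadjusted p of 0.05, and 9 were called lower in A3 than in Aal. The called genes were *Id4*, *Nanos2*, *Ret*, *Etv5*, *Lhx1*, *T*, *Tspan8*, *Egr3* and *Dusp6*. *Pax7*, named after its values were seen, was the gene not called. As with *Nanos3*, the 9 called genes were lower in A1 than in Aal and were not called from A1 to A3. Whether their steps differed in size is not given here. *Ret*, the receptor for GDNF, had stage means of 82.6 ± 5.51 FPKM (SD, n = 2), 21.5 ± 7.48 (SD, n = 3) and 19.5 ± 3.42 (SD, n = 3).

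Of 6 other genes of progenitors and undifferentiated cells, *Foxc2* and *Glis3* were called lower in A1 and, together with *Utf1*, in A3 against Aal, and none was called from A1 to A3 by limma or voom, where 2 of 6 had an unadjusted p below 0.05. *Glis3*, a zinc finger transcription factor gene, had -2.21 and then 0.08. *Utf1*, a chromatin-associated factor of undifferentiated cells, measured 14.5 and 8.69 FPKM in Aal, 6.32 to 8.90 in A1 and 3.32 to 4.69 in A3, and its Aal and A1 libraries overlapped. The median change of this list was -0.28 in A1 and -0.999 in A3 against Aal, and 4 of the 6 changes were below 0 in each. *Lin28b* (0.20 in A1 and 0.27 in A3) and *Magea4* (0.62 and 0.64) were higher than in Aal. Neither was called, and both are named after their values were seen.

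**Figure D4:**
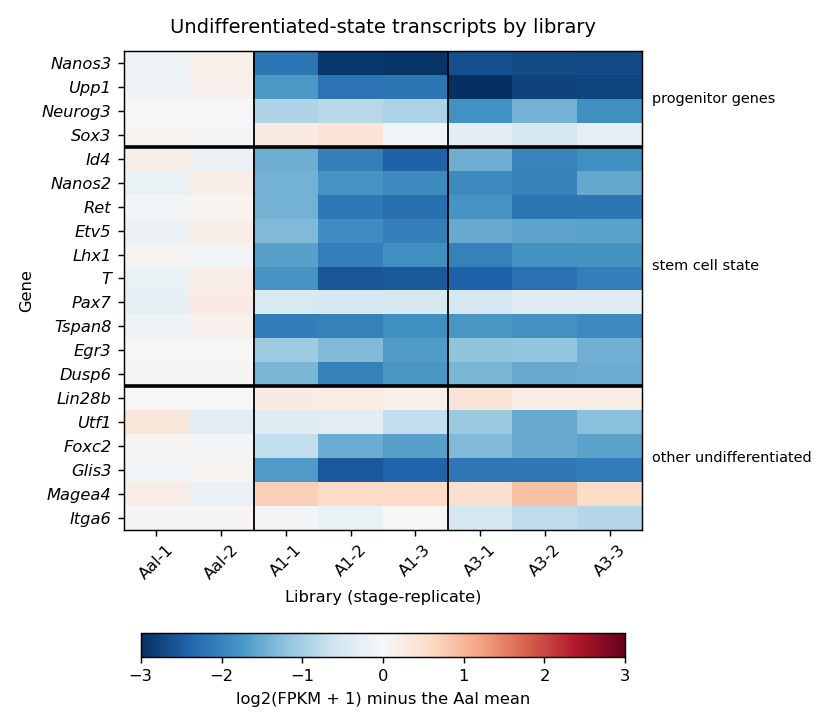
Colour gives log2(FPKM + 1) of each gene (rows) in each library (columns) minus the mean of the Aal libraries, from -3 (blue) to 3 (red). Rows are the 4 progenitor genes, 10 stem cell state genes and 6 other undifferentiated genes. *Nanos3* and most stem cell state genes are about as low in A1 as in A3, *Neurog3* and *Utf1* are lower in A3 than in A1, and *Sox3* stays near the Aal level.

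Most tested genes of differentiating spermatogonia moved the other way from Aal to A1, where 2 of 12 had a change below 0. Of 16 listed genes 13 were in the table. In A1 against Aal 7 of 12 tested genes were called higher, namely *Sohlh2*, *Dnmt3b*, *Cited1*, *Cyp26a1*, *Crabp1*, *Prss50* and *Tbx1*, with a median change of 1.22. *Sohlh2*, a bHLH factor required for differentiation, rose from 33.8 ± 1.53 FPKM (SD, n = 2) to 75.8 ± 8.66 (SD, n = 3) and stood at 78.8 ± 3.89 (SD, n = 3) in A3. From A1 to A3 the list had no common direction, with a median change of -0.02 and 6 of 12 tested genes below 0. Between A1 and A3 *Cited1* and *Dmrtb1* were called higher and *Cyp26a1*, which encodes an RA-degrading enzyme, lower. In A3 against Aal 6 of 11 were called higher and *Ccnd2*, a D-type cyclin gene, lower. *Ccnd2* was at 42.2 and 39.2 FPKM in Aal, 31.2 to 39.9 in A1 and 18.1 to 18.3 in A3, with a difference of -0.22 in the first step and -0.90 in the second.

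Partners and relatives of each protein were counted in turn. Of 10 tested genes of NANOS partners and germline translational repression, the NANOS genes *Nanos2* and *Nanos3* were the ones called, both lower in A1 and in A3 against Aal. The deadenylase subunit, decapping and Pumilio genes of the list were not called in any comparison, and the median change of the list in A1 against Aal was 0.02. The decapping gene *Dcp1a*, named after its values were seen, passed the p threshold but not the fold threshold in A3. It was lower by -0.65 than in A1 (limma, adjusted p = 0.00188) and by -0.71 than in Aal (limma, adjusted p = 0.000395). *Dazl*, an RNA-binding translational regulator of germ cells, had stage means of 318 ± 21.4 FPKM (SD, n = 2), 380 ± 13.1 (SD, n = 3) and 403 ± 33.3 (SD, n = 3), and is named after its values were seen.

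Among 9 tested genes of bHLH factors and their inhibitors 4 were called in A3 against Aal, 2 in each direction, beside 9.69% of all genes called lower and 7.87% higher. *Neurog3* was called lower in A3 against Aal, together with *Id4*, an inhibitor of bHLH factors and a stem cell marker. *Id4* was called from Aal to A1 already, by -1.98 (limma, adjusted p = 0.00116). *Ascl2*, another bHLH factor gene, was called higher in both comparisons with Aal, going from 5.24 ± 0.251 FPKM (SD, n = 2) to 17.0 ± 1.72 (SD, n = 3) and 18.5 ± 0.686 (SD, n = 3). *Id2*, another inhibitor, was called higher in A3 against Aal by 2.95, and *Hes5*, a Notch target, was called lower from A1 to A3 by -1.12. *Id2* and *Neurog3* thus had opposite called changes in A3, whereas *Id4* and *Neurog3* had the same direction. The medians of the list were 0.28, 0.03 and -0.05 in A1 against Aal, A3 against A1 and A3 against Aal.

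Of 6 tested *Sox* genes, *Sox10* was called lower in A1 than in Aal, as 4.97% of all genes were. *Sox12* was called higher in A3 than in Aal, as 7.87% of all genes were. *Sox4* (-0.71), *Sox30* (-0.96) and *Sox15* (0.87) passed the p threshold but not the fold threshold in A3 against Aal. These 3 genes are named after their values were seen. *Sox10* was at 16.2 and 18.5 FPKM in Aal, 4.42 to 6.25 in A1 and 6.83 to 11.1 in A3. *Sox12*, at 28.9 and 31.6 FPKM in Aal and 49.7 to 56.9 in A1, reached 56.9 to 70.1 in A3. In A3 *Sox12* was above *Sox3* in every library, and in Aal it was below *Sox3* in both.

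In pyrimidine salvage and synthesis, *Upp1* was the 1 gene of 17 called in A1 against Aal, and the median change of the list was 0.16. In A3 against Aal *Dctd*, the deaminase that turns dCMP into dUMP, was also called lower, by -1.34 (limma, adjusted p = 1.73e-05), and *Uck2*, a uridine-cytidine kinase gene, was called higher by 1.05. *Uck2* was at 34.9 and 33.2 FPKM in Aal, 54.3 to 65.8 in A1 and 65.8 to 78.0 in A3, and *Dctd* at 49.6 and 52.8, 28.5 to 31.0 and 18.3 to 21.4. In A3 against Aal the gene that splits uridine thus fell where a gene that phosphorylates it rose. No gene of the list was called between A1 and A3 by limma, where 5 of 17 had an unadjusted p below 0.05, as did 34.0% of all genes, and 1 was called by voom on recovered reads.

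The genes most like each of the 4 over the 8 libraries were ranked by Pearson's r of log2(FPKM + 1) among 4788 other genes. These libraries share 3 stages, so any genes that follow stage are alike, and r is given as a description. *Nanos3* was most like *Iqub*, *Glis3*, *Fgd5*, *Rnf25* and *Iqcg*, with r from 0.993 to 0.998. *Fgd5* had stage means of 34.5 ± 0.360 FPKM (SD, n = 2), 9.54 ± 2.29 (SD, n = 3) and 9.52 ± 0.830 (SD, n = 3), the same single step. *Upp1* was most like *Ccdc180*, *Xist*, *Stxbp5l*, *Scml4* and *Rgs14*, with r from 0.992 to 0.996, and *Scml4* and *Rgs14* were under 2 FPKM in all groups.

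*Neurog3* was most like *Hs6st1*, *Zmat3*, *Rrad*, *Pou5f1* and *Susd1*, with r from 0.986 to 0.993. *Pou5f1*, the pluripotency factor gene that marks undifferentiated spermatogonia, was at 23.5 and 25.7 FPKM in Aal, 14.4, 13.7 and 11.3 in A1, and 6.77, 7.69 and 6.75 in A3. Its changes were -0.86 and -0.81, nearly those of *Neurog3*, and like *Neurog3* it was called in A3 against Aal alone. *Sox3* was most like *Ccl22*, *Cebpb*, *Cd164l2*, *Sik1* and *Piezo2*, with r from 0.944 to 0.976. Of these *Sik1*, a salt-inducible kinase gene, had a level near that of *Sox3*, with stage means of 22.9 ± 0.918 (SD, n = 2), 26.7 ± 2.00 (SD, n = 3) and 17.2 ± 1.51 FPKM (SD, n = 3), and the means of the other genes were under 5 FPKM.

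Among themselves the 4 genes were alike in part. The correlation was 0.948 for *Nanos3* with *Upp1* and 0.947 for *Upp1* with *Neurog3*, but 0.820 for *Nanos3* with *Neurog3*. *Sox3* had 0.147 with *Nanos3*, 0.391 with *Upp1* and 0.544 with *Neurog3*. Even *Nanos3* and *Upp1* were not nearest neighbours, since *Upp1* ranked 295 among 4788 genes by likeness to *Nanos3*.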

How the data were processed

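Bulk RNA-seq of sorted EGFP+ spermatogonia was analysed in 8 libraries, grouped by their titles. Per the labels and the study's methods, the authors trimmed reads with cutadapt 1.9, aligned them to mm9 with STAR 2.5.2b and counted them per gene with featureCounts. The deposited values are FPKM, made by the authors, with 1 column per library. The annotation, the use of strand and the lengths behind FPKM are not stated. The table holds 5736 genes and 34.0% to 34.4% of each library's reads, so it covers part of the transcriptome.

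Reads were recovered from the steps between low FPKM values for 100% of genes (tolerance 0.02 reads), and in simulated data for 99.9% of 1000 genes. Library totals of 18276164 to 27316451 reads follow from this. Groups of 2 or 3 libraries limit the precision. Same-stage libraries were separate cell preparations per the methods.

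Tests were two-sided and used limma 3.58.1 (R 4.3.3; lmFit, eBayes with a mean-variance trend) on log2(FPKM + 1), over all genes with at least 1 FPKM in at least 2 libraries compared, on the libraries of each pair of groups, with Benjamini-Hochberg adjustment over all genes tested. The pseudocount understates the change of low genes. The difference of the steps used all libraries in 1 fit. On simulated data with 200 genes changed 4-fold at a dispersion of 0.02, which biological spread can exceed, the test recovered 97%, 98% and 96.5% in A1 against Aal, A3 against A1 and A3 against Aal, over 4515, 4553 and 4529 genes.

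Named were the 4 genes, their paralogs, *Uchl1*, called genes of 7 lists and the 5 genes most like each of the 4. Genes outside this rule are marked. The other lists hold markers of 8 cell types other than spermatogonia; of 7 red blood cell markers 0 were in the table. Positions come from GENCODE M1, promoters from RefSeq. The members and lists were chosen with earlier results of these data known. Alternatives were other pseudocounts, filters, scalings and thresholds, a fit over all libraries, no trend, a replicate block, limma voom on recovered reads, and leaving out each replicate.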

Additional observations from a re-analysis of the deposited data

Results flagged for a closer look

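The change of *Nanos3* from A1 to A3 differed from its change from Aal to A1 by 2.66 on the log2 scale (SE 0.33; limma over 8 libraries, adjusted p = 0.00122), which marks it for a closer look because the steps differ by a test of the difference itself. The same test marked *Upp1*, with a difference of 1.25 (SE 0.24; limma, adjusted p = 0.00682). Groups of 2 or 3 libraries are too small for a search for outlying samples.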

How the results depend on the processing

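Of 268 values of the 4 genes under other settings, 256 kept their direction and their call by p and fold together. By the adjusted p threshold alone, 239 kept their side and 29 crossed it: 8 of 17 for *Upp1*, 5 of 17 for *Neurog3* and 2 of 17 for *Sox3* in A3 against A1, 5 of 16 for *Sox3* in A3 against Aal, and 8 and 1 of 18 for the step differences of *Upp1* and *Sox3*. The step difference of *Upp1* lost its call with no mean-variance trend (1.25, adjusted p = 0.0127) and with a replicate block (1.23, adjusted p = 0.0268), and leaving out a library gave 1.07 to 1.56. That of *Sox3* was -1.06 to -0.57 and passed without A1 replicate 3. The direction of *Nanos3* from A1 to A3 reversed without A1 replicate 1 (0.24) and without A3 replicate 3 (0.0039), in a range of -0.15 to 0.24, and the step difference of *Neurog3* reversed without A3 replicate 2 (-0.039), in a range of -0.04 to 0.18. The causes were not tested. Counts of all genes called moved more. In A1 against Aal 424 genes were called, 670 with a pseudocount of 0.1, 120 with 5, 731 with limma voom on recovered reads, and 179 to 475 with a library left out. In A3 against A1 the count was 69, against 152, 15, 199 and 26 to 111 in the same order and 39 with a replicate block. In A3 against Aal it was 823, against 271 with a pseudocount of 5 and 538 at a minimum of 5 FPKM. It was 1170 with a pseudocount of 0.1, 1214 with limma voom and 795 to 878 with an A3 library left out. The step difference had 363 calls, 131 with a pseudocount of 5, 230 at a minimum of 5 FPKM and 220 with a replicate block. It had 425 with limma voom, 504 at an adjusted p under 0.05, and 96 to 370 with an A1 or A3 library left out. Replicate numbers did not pair the libraries: same-number correlations were -0.323 to 0.045, and 0 of 8 libraries correlated best with their own number. Depth and the number of libraries both limit the detection of small changes.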
